A study of Mus musculus with 36 samples.

Results

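The 44 genes described here encode enzymes and transporters of fatty acid oxidation and ketone body metabolism. They were listed by symbol and matched to the Ensembl identifiers of the count tables, which hold 78239 genes in all, and all 44 were found. The libraries came from heart, kidney and liver of wild-type (WT) male C57BL/6NCrl mice aged 8, 10 or 12 weeks. Mice were bought at 6 weeks and kept on chow and water ad libitum, with no treatment other than ketamine and xylazine anaesthesia before organ removal. Each of the 9 groups held 4 libraries, 36 in all, made from polyadenylated RNA of whole organs. Every group therefore reports on 1 sex and 1 substrain, and fewer cells of a type cannot be told apart from less RNA per cell. The labels do not say whether a replicate number marks 1 animal across organs, and the p-values measure the spread between these samples.

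Long-chain fatty acids are first joined to coenzyme A, carried into mitochondria as carnitine esters by the shuttle of Cpt1, Slc25a20 and Cpt2, and shortened by repeated rounds of dehydrogenation, hydration, oxidation and thiolysis. Peroxisomes run a related pathway for very-long-chain and branched fatty acids and for bile acid side chains. Liver turns the resulting acetyl coenzyme A into ketone bodies, and heart and kidney burn them with the enzyme encoded by Oxct1. The 44 genes were sorted by role into 6 for activation, 4 of the carnitine shuttle, 9 of the mitochondrial spiral, 5 for unsaturated bonds and electron transfer, 3 of ketone metabolism, 14 peroxisomal genes, and 3 others (Acot2, Acot12 and Crat). Shuttle, spiral and electron transfer together gave 18 mitochondrial steps to set against the 14 peroxisomal ones.

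Levels are CPM, counts relative to the library total, scaled within 1 organ where ages are compared. Where organs or genes are compared, levels are RPKM, which are CPM scaled over all 36 libraries and divided by the length of the canonical transcript in kilobases. Libraries held 21031599 to 33637390 counted read pairs, and the summed defining markers matched the labelled organ in all of them: heart muscle markers were at 41328 CPM or more in heart and at 3.64 CPM or less elsewhere, and hepatocyte markers were at 99125 CPM or more in liver and at 360 CPM or less elsewhere. Of the 44 genes, 40 passed the filter on low counts in heart (not Acot12, Acox2, Hacl1 and Slc27a2), 43 in kidney (not Acsl6) and 42 in liver (not Cpt1b and Acsl6). All 44 passed over the whole set of libraries.

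Values of 3 genes are remnants. Of the canonical exons, other annotated genes cover 89.8% of Cpt1b (the muscle form of carnitine palmitoyltransferase 1) and 69.1% of Etfb (the beta subunit of electron transfer flavoprotein). They cover 56.3% of Hacl1 (the lyase that follows phytanic acid alpha-oxidation). In each the largest overlap is with a gene on the same strand. Those overlapping genes, Gm44502, Etfbl and Gm49387, had 0 counts in all 36 libraries. The counter used leaves out a read pair that falls on more than 1 gene. Levels of Cpt1b, Etfb and Hacl1 can thus be too low by an unknown amount, and they are left out of the sums of levels given here. Other genes also cover 53.8% of Hadha, 44.5% of Acadvl, 42.8% of Acsl5 and 25.2% of Etfdh, with the largest overlap on the opposite strand. Because the counts ignore strand, these levels can be too low as well. Acaa1a and Acot2 have near-identical neighbours, Acaa1b and Acot1, and their counts are uncertain for that reason.

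Hadha and Hadhb encode the subunits of the mitochondrial trifunctional protein and are read from opposite strands of 1 short region. The overlap of their promoter windows is therefore shown. Windows from 250 bases before to 50 bases after the start were taken from RefSeq on GRCm38.p6, and 36 of the 44 genes had one. The Hadhb window (chr5:30155003-30155302, + strand) reads 5′ to 3′ as follows, with capitals for the 228 bases that also lie in the Hadha window on the other strand.

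Hadhb: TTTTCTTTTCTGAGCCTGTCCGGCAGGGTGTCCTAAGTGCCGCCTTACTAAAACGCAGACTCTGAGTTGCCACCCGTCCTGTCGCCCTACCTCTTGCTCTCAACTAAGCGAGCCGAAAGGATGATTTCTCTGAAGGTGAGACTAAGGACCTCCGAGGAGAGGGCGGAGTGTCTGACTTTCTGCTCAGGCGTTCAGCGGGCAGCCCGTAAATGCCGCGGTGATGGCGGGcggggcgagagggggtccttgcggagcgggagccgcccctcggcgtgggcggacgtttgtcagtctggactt

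Both genes had their highest mean level in heart. A search on both strands for 2 copies of AGGTCA with 1 base between them, the direct repeat that PPAR alpha and its partner are known to bind, found it in 0 of the 42 windows of the 36 genes and in 0.0396% of all 32851 promoter windows. TCAAGGTCA, the site known for estrogen-related receptors, was in 0.423% of all windows. Among these genes it was in a single window of Acsl6, on the reverse strand. The Acsl6 window (chr11:54303574-54303873, + strand, GRCm38.p6) is shown because it is the only one with that match, which capitals mark.

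Acsl6: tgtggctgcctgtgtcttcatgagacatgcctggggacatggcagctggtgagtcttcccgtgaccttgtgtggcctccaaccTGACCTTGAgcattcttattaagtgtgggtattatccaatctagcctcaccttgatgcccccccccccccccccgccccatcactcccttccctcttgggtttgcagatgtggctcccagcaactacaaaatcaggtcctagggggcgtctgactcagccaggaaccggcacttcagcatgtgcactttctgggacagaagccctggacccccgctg

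The match is a description of letters in a window and not a mapped binding site. Acsl6, a long-chain acyl coenzyme A synthetase best known from brain, was low in all organs, with 0.931 to 2.17 RPKM in heart and at most 0.102 RPKM in kidney and liver.

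The mitochondrial and the peroxisomal arm were highest in different organs. Heart had the highest mean level for 14 of the 16 mitochondrial genes with usable counts, and liver for the remaining Cpt1a and Acaa2. Liver was highest for 11 of the 13 usable peroxisomal genes and kidney for Acox3 and Amacr. These counts depend on scaling. With library totals alone, the log2 fold change of kidney against liver was 0.49 for Cpt1a, 0.67 for Acot8 and 0.24 for Crot. That of heart against liver was then 0.04 for Acaa2, and that of heart against kidney -0.02 for Acadm. Summed over these 16 mitochondrial genes, levels were 4577 to 5949 RPKM in heart, 1529 to 1919 RPKM in kidney and 1927 to 2814 RPKM in liver. The 13 peroxisomal genes summed to 660.2 to 819 RPKM in heart, 948 to 1249 RPKM in kidney and 3380.4 to 5552 RPKM in liver. The mitochondrial sum was thus 6.11 to 7.30 times the peroxisomal one in heart, 1.37 to 1.69 times in kidney and 0.452 to 0.570 times in liver. Scp2 and Phyh had the highest levels among the peroxisomal genes of liver. Without these 2 genes the ratio was 20.9 to 24.1 in heart, 2.68 to 3.28 in kidney and 2.12 to 2.80 in liver, so that liver and kidney overlapped and heart still stood apart.

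**Figure D1:**
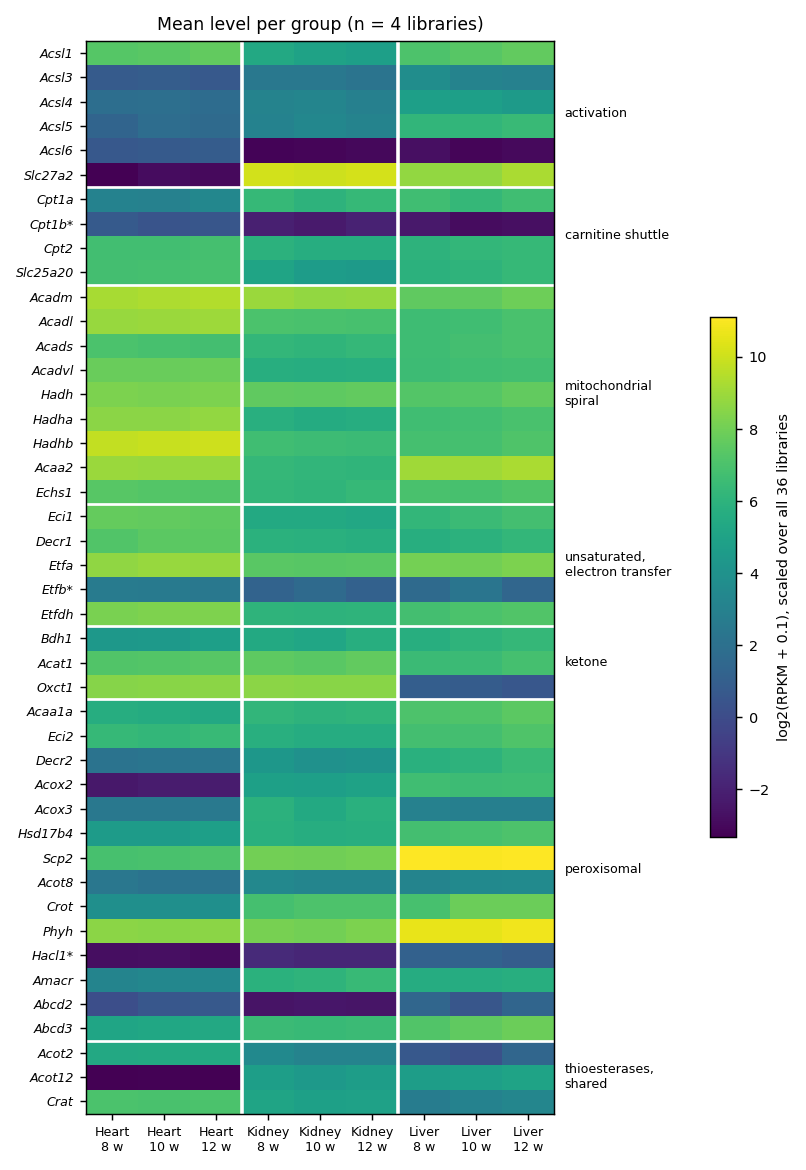
Mean level of each of the 44 genes (rows, by role) in the 9 groups of organ and age (columns, n = 4 libraries each), as colour on a scale of log2(RPKM + 0.1). Heart is brightest in the mitochondrial rows and liver in the peroxisomal rows Scp2 and Phyh, and columns of 1 organ look alike at 8, 10 and 12 weeks; asterisks mark Cpt1b, Etfb and Hacl1, whose counts are remnants.

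Between organs, a gene was called when the adjusted p of edgeR's quasi-likelihood test, over 19716 genes and averaged over ages, was below 0.05 and the log2 fold change was beyond 1 in size. Heart against liver, 13 of the 44 genes were called higher (28.7% of all genes were) and 18 lower (26.5% of all genes). Of the 18 mitochondrial genes 9 were higher and 1 lower, and of the 14 peroxisomal genes 0 were higher and 11 lower. The median log2 fold change was 0.97 over the mitochondrial and -2.26 over the peroxisomal genes. Heart against kidney gave 19 higher (21.9% of all genes) and 16 lower (30.8%), with 14 mitochondrial genes higher and 10 peroxisomal genes lower. The corresponding medians were 1.79 and -1.14, against -0.15 over all genes.

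Kidney against liver, 7 were called higher (30.6% of all genes) and 17 lower (17.2%), and 10 of the 14 peroxisomal genes were among the lower. That comparison moved most with scaling. When only library totals were used, the median of all genes shifted from 0.16 to 0.93 on the log2 scale and the members split into 9 higher and 8 lower, so the higher share of called members went from 29.2% to 52.9% while that of all called genes went from 64.0% to 81.5%. Under that scaling 12 members, none of them called, changed the sign of kidney against liver. Without Cpt1b, Etfb and Hacl1, heart against liver gave 8 mitochondrial genes higher and 10 peroxisomal genes lower.

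The carnitine shuttle was not uniform. Cpt1a, the liver form of the enzyme that makes long-chain acylcarnitine, had 6.42 to 11.2 RPKM in heart, 56.4 to 90.7 RPKM in kidney and 71.6 to 116 RPKM in liver. Heart was thus far below both other organs, while the ranges of kidney and liver overlapped. Cpt1b kept 0.756 to 1.92 RPKM in heart from its uncovered exons and was at most 0.223 RPKM in kidney and 0.180 RPKM in liver. Slc25a20, the carnitine-acylcarnitine carrier, had its highest values in heart at 88.6 to 143 RPKM, followed by liver at 54.2 to 87.8 RPKM and kidney at 20.9 to 43.6 RPKM, with no overlap between neighbours. Cpt2, which reforms acyl coenzyme A inside the mitochondrion, followed the same order with 93.6 to 124 RPKM in heart, and its values in liver and kidney overlapped.

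Within the mitochondrial spiral the trifunctional protein separated heart from kidney by the largest log2 fold changes. Hadhb had 853 to 1188 RPKM in heart, 87.8 to 142 RPKM in liver and 88.9 to 107 RPKM in kidney, a log2 fold change of heart against kidney of 3.31 ± 0.06 (SE, adjusted p = 1.65e-32, edgeR). Hadha differed by 3.00 ± 0.06 in the same comparison (adjusted p = 8.64e-32, edgeR). The acyl coenzyme A dehydrogenases divide substrates by chain length. Acadl, the long-chain form, had 449 to 583 RPKM in heart, 114 to 141 RPKM in kidney and 88.3 to 128 RPKM in liver, of which the last ranges overlapped. Acadm, the medium-chain form, ran from heart at 497 to 775 RPKM to kidney at 396 to 519 RPKM, which overlapped, and to liver at 162 to 258 RPKM. Acads, the short-chain form, did not separate heart from liver, with 96.5 to 134 RPKM and 86.6 to 134 RPKM. Acaa2, the last enzyme of the spiral, was at 456 to 639 RPKM in liver and 399 to 530 RPKM in heart, ranges that overlapped, and at 58.7 to 112 RPKM in kidney.

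Activation enzymes differed between organs as well. Acsl1, the main long-chain acyl coenzyme A synthetase of heart and liver, had 144 to 211 RPKM in heart and 131 to 233 RPKM in liver, against 21.1 to 50.03 RPKM in kidney. Slc27a2, a very-long-chain synthetase and transporter, reached 960 to 1262 RPKM in kidney and 322 to 674 RPKM in liver, and heart libraries held 0 to 7 counts of it. Acot12, a cytosolic acetyl coenzyme A thioesterase, had 0 to 2 counts per heart library against 23.4 to 38.0 RPKM in liver and 19.6 to 29.6 RPKM in kidney. With counts so low no fold is given for either gene, although both were among the lowest of heart against liver and heart against kidney. Acox2, the oxidase for bile acid intermediates, had a log2 fold change of heart against liver of -9.84 ± 0.13 (SE, adjusted p = 1.87e-36, edgeR), from 2 to 12 counts per heart library, and the log2 fold change of heart against kidney was -8.13 ± 0.13.

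Further differences marked liver and kidney. Scp2, the sterol carrier and thiolase, was at 1494 to 2538 RPKM in liver, 245 to 287 RPKM in kidney and 102 to 148 RPKM in heart, and Phyh, which starts phytanic acid alpha-oxidation, was at 1130 to 1855 RPKM in liver against at most 429 RPKM elsewhere. Kidney against liver, the log2 fold change was -3.02 ± 0.07 for Scp2 (SE, adjusted p = 3.4e-29, edgeR). The lowest values of that comparison belonged to Abcd2, a peroxisomal transporter of very-long-chain acyl groups, at -4.77 ± 0.30, to the remnant Hacl1, at -3.34, and to Acsl5, at -3.10 ± 0.07. Acox3, the oxidase for branched chains, was 2.82 ± 0.07 higher in kidney than in liver (SE, log2, adjusted p = 6.88e-28, edgeR). Acot2, a mitochondrial acyl coenzyme A thioesterase, was 2.54 ± 0.13 higher in kidney and 4.73 ± 0.14 higher in heart than in liver, and Acsl6 was 5.78 ± 0.25 higher in heart than in liver. Abcd2 was 4.10 ± 0.30 higher in heart than in kidney, and Acsl6 6.63 ± 0.25, the latter against at most 9 counts per kidney library. The remnant Cpt1b came next in that comparison, at 3.33 ± 0.18, from 11 to 27 counts per kidney library.

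Among the other members, Eci1, Decr1, Etfa and Etfdh (unsaturated bonds and electron transfer) and Hadh and Echs1 of the spiral had their highest means in heart, at 154 to 447 RPKM. Eci2, Hsd17b4, Acot8 and Decr2 of the peroxisome and the synthetases Acsl3 and Acsl4 had theirs in liver, at 10.0 to 122 RPKM. Amacr, the racemase for branched chains, had 48.2 to 108 RPKM in kidney, 36.8 to 59.9 RPKM in liver and 8.35 to 11.6 RPKM in heart, with kidney and liver overlapping.

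The carnitine acyltransferases that handle shortened chains were opposed. Crat, which acts on acetyl groups in mitochondria and peroxisomes, had 108 to 150 RPKM in heart, 28.0 to 38.7 RPKM in kidney and 5.91 to 11.9 RPKM in liver. Crot, which exports medium chains from peroxisomes, had 12.7 to 17.0 RPKM in heart, 91.9 to 150 RPKM in kidney and 96.8 to 322 RPKM in liver. The 3 organs were thus apart for Crat, and for Crot only heart was.

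The gene needed for ketone use was low in liver. Oxct1 encodes succinyl coenzyme A:3-ketoacid transferase, which is needed to burn ketone bodies. It was at 333 to 416 RPKM in heart and 344 to 390 RPKM in kidney, ranges that overlapped, and at 1.24 to 2.39 RPKM in liver. Oxct1 was 7.82 ± 0.08 higher on the log2 scale both in heart and in kidney than in liver (SE, adjusted p = 2.77e-39 and 1.17e-38, edgeR).

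The enzymes that serve both directions were shared more evenly. Bdh1, which interconverts acetoacetate and beta-hydroxybutyrate, had 39.1 to 94.0 RPKM in liver, 30.3 to 60.5 RPKM in kidney and 14.7 to 41.0 RPKM in heart, each overlapping its neighbour. Acat1, the mitochondrial acetoacetyl coenzyme A thiolase, had 152 to 212 RPKM in kidney, 135 to 189 RPKM in heart and 62.5 to 124 RPKM in liver. Its kidney and heart ranges overlapped and liver lay below both. The low level of Oxct1 in liver rested on 96 to 150 counts per library.

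**Figure D2:**
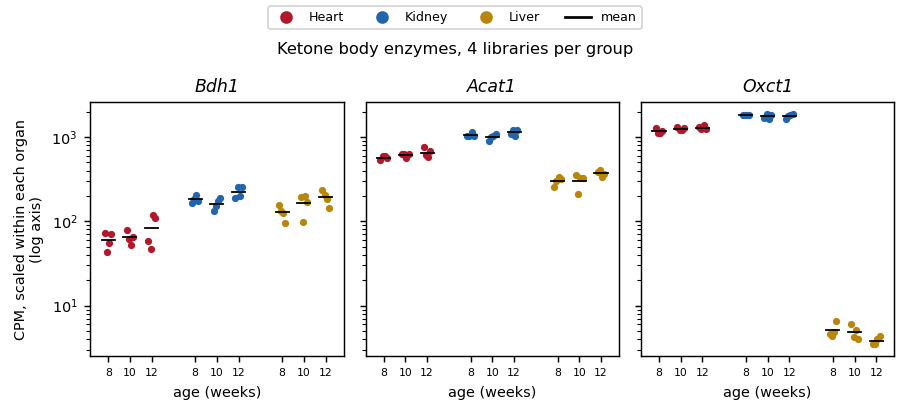
Level of 3 ketone body enzymes in every library, as CPM scaled within each organ (log axis) against age in weeks, with points for libraries and a short line for the mean of 4. Oxct1 in liver lies between 3.48 and 6.59 CPM and between 1104 and 1879 CPM in heart and kidney, while Bdh1 and Acat1 are within a narrower span over the organs.

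Age was the study's question. Comparisons of ages used edgeR's quasi-likelihood test in each organ, with an adjusted p under 0.05 over all genes kept in that organ as the call. At 12 against 8 weeks in heart, 4 of the 40 tested members were called, with 3 higher (2.36% of all genes) and 1 lower (2.21%). The median log2 fold change over the 40 was 0.12, and over all genes it was at most 0.00636 in size in every organ and comparison of ages. At an unadjusted p under 0.05 there were 11 higher (12.1% of all genes) and 2 lower (11.3%), and 8 were higher (6.92%) and 1 lower (5.73%) in every 12-week heart than in any 8-week heart. Acsl1 had 785, 894, 881 and 851 CPM at 8 weeks, 936, 940, 938 and 929 CPM at 10 weeks, and 1057, 1058, 1056 and 1141 CPM at 12 weeks in heart. All 12-week hearts lay above all 8-week hearts, and the log2 fold change was 0.34 ± 0.07 (SE, adjusted p = 0.0158, edgeR).

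The other calls in heart were peroxisomal. Abcd2 had 5.23, 5.10, 6.23 and 6.74 CPM at 8 weeks and 9.13, 8.71, 8.06 and 8.44 CPM at 12 weeks, a rise of 0.56 ± 0.12 (SE, adjusted p = 0.0222, edgeR). Abcd3, a transporter of the same family as Abcd2, had 116, 123, 134 and 128 CPM at 8 weeks and 156, 155, 157 and 138 CPM at 12 weeks, and rose by 0.27 ± 0.07 (adjusted p = 0.0403, edgeR). Acaa1a, the peroxisomal thiolase, had 84.5, 86.3, 87.1 and 92.5 CPM at 8 weeks and 72.6, 65.1, 69.7 and 75.9 CPM at 12 weeks, a log2 fold change of -0.31 ± 0.07 (adjusted p = 0.0291, edgeR). For each of these 3 genes the groups at 8 and 12 weeks did not overlap, and the 10-week libraries overlapped those at 12 weeks. The count rested on single libraries. It was 8 without the 12-week replicate 4, where Abcd3 was 138 CPM and Acsl5 8.89 CPM against 13.5 to 14.1 CPM in the others, and 0 without the 12-week replicate 3. It was 1 without the 8-week replicate 2, the 8-week replicate 4, or the 12-week replicate 1 or 2, and 2 without the 8-week replicate 3. No share of all genes is given for any fit with a library left out, so these counts have no background. Abcd3 was not called without the filter on low counts (adjusted p = 0.0938, edgeR), in counts of a single strand (0.0597) or with the replicate number as a block (0.0554), and Abcd2 was not called in counts of a single strand (0.053).

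**Figure D3:**
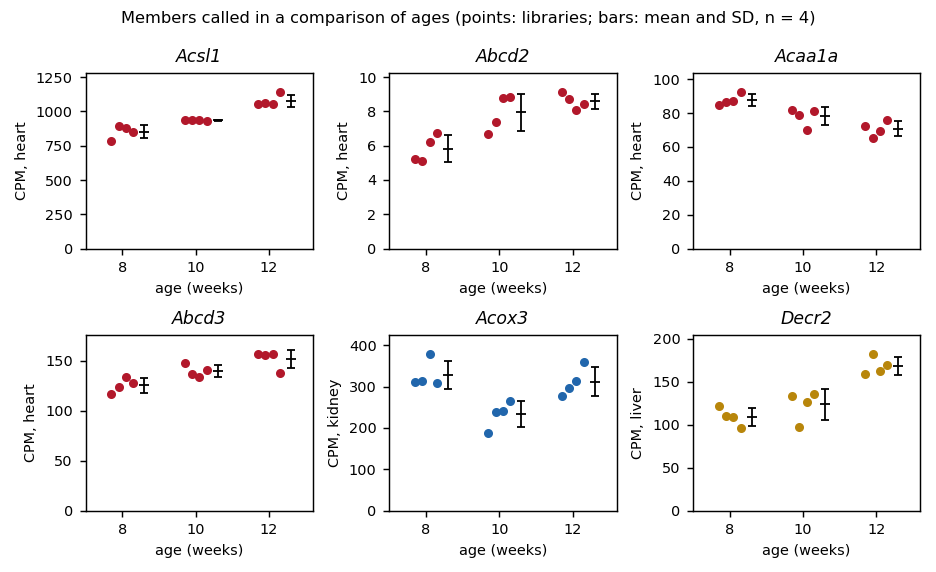
CPM within the organ against age in weeks for the 6 members called in a comparison of ages, with points for libraries and bars for mean and SD (n = 4). In Acsl1, Abcd2, Acaa1a and Abcd3 of heart and Decr2 of liver the 8-week and 12-week points do not overlap, and Acox3 of kidney is lowest at 10 weeks.

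The mitochondrial members of heart gave 0 calls among 18 tested at 12 against 8 weeks (2.36% of all genes were called higher and 2.21% lower). At an unadjusted p under 0.05, 4 of the 18 were higher (12.1% of all genes) and 1 lower (11.3%). Cpt1a had 48.0, 53.5, 55.4 and 49.8 CPM at 8 weeks, 39.9, 51.2, 55.9 and 50.5 CPM at 10 weeks, and 57.8, 69.7, 61.6 and 64.1 CPM at 12 weeks. The 12-week hearts lay above all others, yet the adjusted p was 0.077 against 8 weeks (edgeR). Cpt1b had 2.69, 5.34, 5.54 and 4.72 CPM at 8 weeks and 3.29, 5.07, 3.13 and 3.94 CPM at 12 weeks, which overlapped. Between 10 and 8 weeks and between 12 and 10 weeks, 0 members were called in heart (1.06% and 0.0396% of all genes were), with 6 and 4 at an unadjusted p under 0.05 (15.8% and 11.7% of all genes) and 2 and 0 calls in DESeq2. With the 10-week replicate 2 or the 8-week replicate 1 left out, 1 was called at 10 against 8 weeks.

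In heart the ketone genes and the acetyl and medium-chain transferases were not called at 12 against 8 weeks. Bdh1 had 72.2, 43.2, 55.0 and 70.6 CPM at 8 weeks, 78.2, 62.3, 52.7 and 64.5 CPM at 10 weeks, and 59.2, 47.1, 120 and 109 CPM at 12 weeks. At 12 weeks 2 hearts were thus above all others and 2 were within the younger range (adjusted p = 0.23, edgeR). Oxct1 had 1289, 1104, 1110 and 1172 CPM at 8 weeks, 1316, 1195, 1201 and 1274 CPM at 10 weeks, and 1300.2, 1246, 1373 and 1254 CPM at 12 weeks, which overlapped. Acat1 had 537, 593, 594 and 559 CPM at 8 weeks, 624, 620, 558 and 625 CPM at 10 weeks, and 751, 605, 578 and 677 CPM at 12 weeks, which overlapped too. Crat and Crot stayed within 409 to 566 CPM and 36.5 to 48.8 CPM over all 12 hearts, with log2 fold changes of 0.00 ± 0.09 and -0.01 ± 0.08 at 12 against 8 weeks.

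Liver showed a shift in level over many members that the adjusted test did not reach gene by gene. At 12 against 8 weeks 1 of 42 tested members was called and it was higher (0.177% of all genes were called higher and 0.0613% lower). Yet 23 of the 42 were higher in every 12-week liver than in any 8-week liver (4.29% of all genes were), and 2 were lower in every one (3.84%). At an unadjusted p under 0.05 there were 26 higher (7.37% of all genes) and 2 lower (7.77%). The median log2 fold change was 0.30 over the 42 members, 0.29 over the 17 tested mitochondrial members and 0.22 over the 14 peroxisomal ones. Of the 9 genes of the spiral 9 had a positive log2 fold change, from 0.18 for Acadvl to 0.36 for Hadh, and 8 of the 9 did not overlap between ages. These members share the same 8 livers, so they are not independent of each other. The list was also chosen with earlier results of these data known, and the paper names several of its genes, such as Acsl1 and Acadm, as raised in liver. An excess over the share of all genes is therefore not independent support. In DESeq2 11 members were called, and the share of all genes it called is not given, so this count has no background. With edgeR, 0 were called when any 1 of the 8 libraries was left out, with the replicate number as a block, or in counts of a single strand.

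Decr2, the peroxisomal reductase for unsaturated chains, was the member called. It had 122, 111, 109 and 96.2 CPM at 8 weeks, 134, 97.7, 127 and 136 CPM at 10 weeks, and 159, 183, 162 and 169 CPM at 12 weeks in liver. All 12-week livers were above all others, and it rose by 0.62 ± 0.11 (SE, log2, adjusted p = 0.0413, edgeR) between 8 and 12 weeks. Abcd3 had 446, 442, 487 and 356 CPM at 8 weeks and 699, 836, 561 and 693 CPM at 12 weeks, with no overlap and an adjusted p of 0.0649 (edgeR). Hadh, the short-chain hydroxyacyl dehydrogenase, had 193, 213, 231 and 221 CPM at 8 weeks and 277, 283, 286 and 258 CPM at 12 weeks (adjusted p = 0.0725, edgeR).

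Acsl1 in liver was at 633, 590, 614 and 626 CPM at 8 weeks and 921, 1034, 728 and 966 CPM at 12 weeks, again without overlap (adjusted p = 0.108, edgeR). At 10 weeks it was 983, 656, 644 and 715 CPM, so replicate 1 stood with the 12-week livers. Acsl3 was lower in every 12-week liver than in any 8-week liver, at 41.4, 29.8, 45.2 and 41.8 CPM against 29.6, 23.2, 22.1 and 22.0 CPM (adjusted p = 0.0937, edgeR). Crot had the largest positive log2 fold change of the list in liver, 0.91 ± 0.31 (adjusted p = 0.206, edgeR). Its libraries spread from 234 to 412 CPM at 8 weeks and from 333 to 784 CPM at 12 weeks, so the groups overlapped.

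The ketone genes of liver divided. Bdh1 was 155, 134, 127 and 95.4 CPM at 8 weeks and 234, 208, 186 and 146 CPM at 12 weeks, where the lowest 12-week liver fell within the 8-week range (adjusted p = 0.231, edgeR). Acat1 was 255, 298, 335 and 321 CPM at 8 weeks and 388, 403, 339 and 360 CPM at 12 weeks, with the lowest 12-week liver just above the highest 8-week one. Oxct1 was 4.67, 4.42, 4.85 and 6.59 CPM at 8 weeks and 3.48, 3.54, 3.99 and 4.31 CPM at 12 weeks, all below (adjusted p = 0.289, edgeR). None of the 3 was called. Cpt1a and Crat were not called in liver either. Cpt1a was 528, 508, 525 and 568 CPM at 8 weeks, 368, 455, 371 and 382 CPM at 10 weeks and 411, 528, 533 and 603 CPM at 12 weeks, so that the 10-week livers lay below all 8-week ones and overlapped those at 12 weeks. Crat was 19.0, 19.98, 19.6 and 25.1 CPM at 8 weeks and 37.9, 32.2, 24.9 and 27.8 CPM at 12 weeks, with 37.4, 19.6, 24.7 and 24.9 CPM at 10 weeks.

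Summed leukocyte markers of liver were 40.3 to 62.3 CPM at 8 weeks, 82.6 to 116 CPM at 10 weeks and 47.9 to 80.8 CPM at 12 weeks. Summed hepatocyte markers were 125288 to 164020 CPM, 99125 to 120778 CPM and 122722 to 153812 CPM at the same ages. All 6 hepatocyte and all 6 leukocyte markers were detected, and their part in the liver values was not tested. At 10 weeks, 0 members of 42 were called in liver against 8 weeks and 0 at 12 against 10 weeks (0.0204% and 0.0545% of all genes were), with 6 and 21 at an unadjusted p under 0.05 (14.3% and 14.1% of all genes) and 3 and 8 calls in DESeq2. Between 10 and 12 weeks 36 of the 42 had a positive log2 fold change, with a median of 0.24, against 7481 of 14672 over all genes. The members share the same livers, so their signs are not independent of each other.

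**Figure D4:**
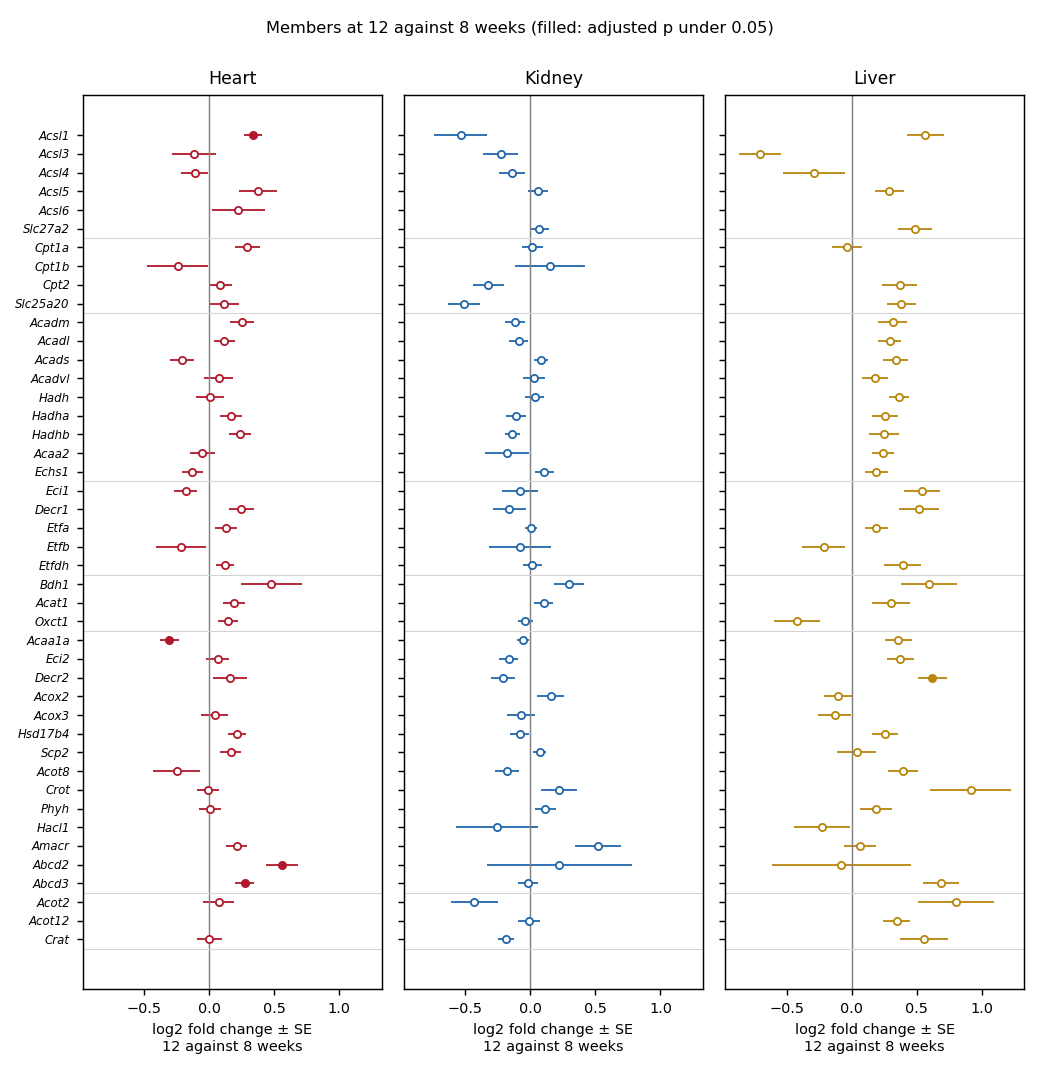
Log2 fold change at 12 against 8 weeks (horizontal axis, point and SE bar) of each member tested, by organ, with genes grouped by role in the same order as the map of levels. Filled points had an adjusted p under 0.05. Most points of liver (33 of 42) and heart (29 of 40) lie right of 0, and kidney is mixed (25 of 43 left of 0). Over all genes these counts were 7230 of 14672, 7582 of 15137 and 8688 of 17649.

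Kidney gave 1 call in all. At 10 against 8 weeks 1 of 43 tested members was lower (0.283% of all genes) and 0 were higher (0.646%). Acox3 had 311, 313, 379 and 310 CPM at 8 weeks, 189, 240, 242 and 265 CPM at 10 weeks, and 278, 297, 315 and 360 CPM at 12 weeks. The 10-week kidneys lay below all others, with a log2 fold change of -0.49 ± 0.10 against 8 weeks (SE, adjusted p = 0.0437, edgeR) and of 0.41 ± 0.10 at 12 against 10 weeks (adjusted p = 0.0839, edgeR). Acox3 lost the call when any 8-week library or the 10-week replicate 1, 2 or 3 was left out (adjusted p = 0.0539 to 0.126, edgeR), and without the 10-week replicate 4 it was called with 2 other members. At 12 against 8 weeks and 12 against 10 weeks 0 members were called (0.0567% and 0.482% of all genes were), with 10 at an unadjusted p under 0.05 in each (11.7% and 16.4% of all genes) and 1 and 3 calls in DESeq2. These genes pointed opposite ways, with 2 higher and 8 lower at 12 against 8 weeks and 8 higher and 2 lower at 12 against 10 weeks. At 10 against 8 weeks 9 had an unadjusted p under 0.05 (16.5% of all genes), 1 higher and 8 lower. In that comparison 35 of the 43 had a negative log2 fold change (median -0.08), against 8737 of 17649 over all genes. Among them were all 9 genes of the spiral and all 4 of the shuttle. These members share the same kidneys, so their signs are not independent of each other. Without the 10-week replicate 4, 4 were called at 12 against 10 weeks, and without the 12-week replicate 1, 1 was, again with no share of all genes. At 12 against 8 weeks 4 members were lower in every 12-week kidney than in any 8-week one (2.95% of all genes were) and 0 were higher (3.66%). They were Slc25a20, Cpt2, Hadhb and Decr1, all mitochondrial, with log2 fold changes from -0.51 to -0.14.

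Cpt1a followed the same course in kidney, with 678, 708, 708 and 805 CPM at 8 weeks, 522, 629, 506 and 610 CPM at 10 weeks and 651, 736, 785 and 758 CPM at 12 weeks. The 10-week kidneys were below all others, and the adjusted p was 0.0595 against 8 weeks and 0.066 against 12 weeks (edgeR). Cpt1a had positive log2 fold changes at 12 against 10 weeks in all 3 organs (heart 0.36 ± 0.09, kidney 0.37 ± 0.08, liver 0.40 ± 0.11) and was called in none of them (adjusted p = 0.227, 0.066 and 0.151, edgeR). Bdh1 in kidney was 165, 184, 203 and 176 CPM at 8 weeks, 131, 151, 174 and 187 CPM at 10 weeks, and 190, 252, 197 and 256 CPM at 12 weeks (adjusted p = 0.0817 at 12 against 10 weeks, edgeR).

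The remaining transferase and ketone genes were not called in kidney. Crat had 171, 183, 191 and 211 CPM at 8 weeks, 165, 155, 157 and 168 CPM at 10 weeks, and 164, 168, 159 and 173 CPM at 12 weeks, with all 10-week kidneys below the 8-week ones (adjusted p = 0.0802, edgeR). Crot had 467, 403, 506 and 508 CPM at 8 weeks, 621, 386, 616 and 627 CPM at 10 weeks, and 528, 612, 582 and 474 CPM at 12 weeks. Replicate 2 at 10 weeks was thus the lowest of the 12 kidneys for Crot while the other three of that age were the highest. Oxct1 had 1814, 1817, 1831 and 1840 CPM at 8 weeks, 1697, 1879, 1652 and 1847 CPM at 10 weeks, and 1654, 1778, 1812 and 1864 CPM at 12 weeks, which overlapped. Acat1 had 1039, 1034, 1130 and 1016 CPM at 8 weeks, 892, 992, 1029 and 1091 CPM at 10 weeks, and 1089, 1208, 1029 and 1198 CPM at 12 weeks.

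Hadha and Hadhb, whose promoter windows overlap, had log2 fold changes at 12 against 8 weeks of 0.17 ± 0.08 and 0.23 ± 0.08 in heart. Their kidney values were -0.11 ± 0.08 and -0.14 ± 0.06, and those of liver 0.26 ± 0.10 and 0.25 ± 0.11. The pair thus had 1 sign in each organ, and neither gene was called in any. Most tested members had that sign too: 29 of 40 in heart, 25 of 43 in kidney and 33 of 42 in liver. Joint control of the pair was not tested.

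Single libraries held many of the members' extremes. Of the 43 members tested in kidney, 17 had their highest CPM of all 12 kidneys in the 8-week replicate 4, among them Cpt1a, Cpt2, Slc25a20, Acsl1 and Hadhb, and 7 had it in the 10-week replicate 1. The 10-week replicates 2 and 3 held the lowest value of 12 and 13 members. In heart the 12-week replicate 1 was highest for 14 of 40 members and the 8-week replicate 1 lowest for 15. In liver the 12-week replicate 1 was highest for 15 of 42 members and the 10-week replicate 2 lowest for 23. These libraries were singled out after the values were seen, and the counts are a description.

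Brown fat markers other than Cox7a1 differed between kidneys as well. Ucp1 was at 21.9 CPM in the 8-week replicate 2, at 0.604 to 4.68 CPM at 10 weeks, at 8.62 CPM in the 12-week replicate 1 and at most 0.129 CPM in the other kidneys. Cidea, Dio2 and Cox8b were also highest in the 8-week replicate 2, at 10.3, 6.28 and 2.33 CPM. Cox7a1 was at 0.242 CPM in that library and at 0.138 to 0.415 CPM over all kidneys. In the 10-week replicate 4, where Ucp1 was at 4.68 CPM, Dio2 was at 0.371 CPM. Of the members, Abcd2 was at 1.37 CPM in the 8-week replicate 2 against 0.222 to 0.356 CPM in the other 8-week kidneys. Summed brown fat markers were at most 30.4 CPM in any kidney, and their part in the members' values was not tested.

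Whether the change from 8 to 12 weeks differed between organs was tested as an interaction over all libraries. Heart against liver, 4 of 44 members were called (4.16% of all genes were), kidney against liver 4 (0.304%), and heart against kidney 0 (0.112%). With a block for each age and replicate number across organs, the first 2 counts were 3 and 7. The last pair had 12 members at an unadjusted p under 0.05 (11.1% of all genes) and 0 calls by limma-voom as well. Acaa1a fell in heart and its liver value was 0.36 ± 0.10, a difference of -0.67 ± 0.11 (SE, log2, adjusted p = 0.00172, edgeR). Eci1 and Acads, which act on unsaturated and short chains in mitochondria, differed by -0.72 ± 0.19 (adjusted p = 0.0245) and -0.55 ± 0.13 (adjusted p = 0.0135, edgeR). Oxct1 differed the other way by 0.56 ± 0.15 (adjusted p = 0.0337, edgeR), with 0.15 ± 0.08 in heart and -0.42 ± 0.18 in liver.

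Kidney against liver, the change of Acsl1 differed by -1.12 ± 0.23 (SE, log2, adjusted p = 0.0188, edgeR), from -0.54 ± 0.20 in kidney and 0.57 ± 0.14 in liver. Slc25a20 differed by -0.91 ± 0.18 (adjusted p = 0.0177, edgeR), Decr2 by -0.84 ± 0.16 (adjusted p = 0.0112) and Abcd3 by -0.72 ± 0.15 (adjusted p = 0.0218, edgeR). In all 4 the kidney value was negative and the liver value positive. The 8-week kidneys include replicate 4, where Slc25a20 was at 105 CPM against 65.0 to 79.8 CPM in the others of that age.

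A wider list of 77 other genes of the pathway was counted for context, as 26 mitochondrial, 22 peroxisomal, 11 ketone, 8 uptake and 10 regulator genes. At 12 against 8 weeks in heart 1 of 68 tested was called higher and 3 lower, where 2.36% and 2.21% of all genes were. Pcca, a subunit of propionyl coenzyme A carboxylase, rose by 0.31 ± 0.08 (SE, log2, adjusted p = 0.0338, edgeR). Fabp4, the adipocyte fatty acid binding protein, had a log2 fold change of -0.59 ± 0.13, Acad10 of -0.49 ± 0.14 and Slc27a1, a fatty acid transporter, of -0.40 ± 0.11 (adjusted p = 0.0247, 0.047 and 0.0441, edgeR). Summed fat cell markers of heart, which include Fabp4, were 125 to 165 CPM at 8 weeks and 81.4 to 107 CPM at 12 weeks. Fabp4 alone had 80.1 to 120 CPM and 46.6 to 73.3 CPM at these ages. It was thus a large part of the sum, which is not a measure separate from Fabp4. The part of fat cells in this was not tested.

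In liver 2 of 74 tested genes of the wider list were called, both peroxisomal and both higher (0.177% of all genes were called higher). Acaa1b, the near-identical neighbour of Acaa1a, had 388, 399, 450 and 214 CPM at 8 weeks and 1204, 1252, 752 and 917 CPM at 12 weeks, a rise of 1.51 ± 0.25 (SE, log2, adjusted p = 0.0312, edgeR). Ehhadh, the peroxisomal bifunctional enzyme, had 213, 232, 209 and 216 CPM at 8 weeks and 293, 308, 285 and 309 CPM at 12 weeks, a rise of 0.46 ± 0.08 (adjusted p = 0.0312, edgeR). Both were above all 8-week livers in every 12-week liver. The paper names both genes in its liver results from these data, so their calls are not independent of the choice of list. In kidney 0 of 75 tested were called at 12 against 8 weeks (0.0567% of all genes were), with 1 call in DESeq2. At an unadjusted p under 0.05 there were 21 (11.7% of all genes), 8 higher and 13 lower. At 10 against 8 and 12 against 10 weeks 0 genes of the wider list were called in any organ. At 10 against 8 weeks 9, 22 and 11 genes (heart, kidney and liver) had an unadjusted p under 0.05, against 15.8%, 16.5% and 14.3% of all genes, and DESeq2 called 2, 6 and 1. At 12 against 10 weeks the numbers were 15 of 68, 20 of 75 and 26 of 74, against 11.7%, 16.4% and 14.1% of all genes, with 0, 7 and 11 calls in DESeq2, and 25 of the 26 in liver were higher.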

How the data were processed

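The deposited tables hold raw gene counts, 1 table per library. Per the labels and the methods, the authors checked reads with FastQC 0.11.9, trimmed them with cutadapt 4.2 and counted read pairs per gene with STAR 2.7.11b on GRCm39 with Ensembl release 113. Such counts leave out pairs that fall on more than 1 gene. The unstranded column was used here, since the first stranded column held 49.82% to 50.24% of both, and 68.56% to 78.84% of pairs were counted to genes.

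For each organ, genes with 2 or more samples above 0 and a mean count of 10 or more in at least 1 age group were kept, scaled by TMM and tested with edgeR 4.0.16 (quasi-likelihood, R 4.3.3), with Benjamini-Hochberg adjustment over 15137 (heart), 17649 (kidney) and 14672 (liver) genes. Organs were compared, and changes with age between organs, in 1 fit of all 36 libraries and 19716 genes. Alternatives used DESeq2 1.42.0, limma 3.58.1, other scaling, no filter, the first stranded column, a replicate block and each library left out. Shares of all genes called are those of the main edgeR test. Counts of DESeq2 calls and counts with a library left out have no such share beside them. On simulated counts with 200 genes changed by 1 on the log2 scale, 82.0%, 69.0% and 63.5% were recovered in heart, kidney and liver at 12 against 8 weeks, and 8.38%, 4.17% and 3.79% of the calls were false. The members called between ages changed less, by 0.27 to 0.62 in size. The recovered shares therefore do not tell how many changes of that size would be found.

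Every member is accounted for. Values per library are given for members called in any comparison of ages and for Cpt1a, Cpt1b, Crat, Crot, Bdh1, Oxct1, Acat1 and Acsl1. For several of them some organs or ages are left out or given as ranges. Between organs the genes with the 3 highest and 3 lowest called log2 fold changes are named. The members and lists were chosen with earlier results of these data known. Exon overlaps came from GENCODE release 39 for mouse, which may differ from release 113. Some genes of the wider list are not reported here by name.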

Additional observations from a re-analysis of the deposited data

Results flagged for a closer look

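Within groups of 4 libraries, 25 of 384 groups had 1 library set apart from the other 3, where 19.2 are expected if 1 in 20 groups is set apart by chance. Members and Ehhadh were tested, and values are CPM scaled within the organ.

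In heart 9 libraries or genes were set apart. Hadhb in the 8-week replicate 2 was above the others, at 1792 CPM against 1634 to 1659 CPM. The 12-week replicate 4 had 1141 CPM of Acsl1, above the 1056 to 1058 CPM of the rest of its group. Acsl5 in the 12-week replicate 4 was below the others, at 8.89 CPM against 13.5 to 14.1 CPM. The 8-week replicate 1 had 12.6 CPM of Decr2, above the 8.92 to 9.51 CPM of the rest of its group. Etfdh in the 12-week replicate 1 was above the others, at 768 CPM against 702 to 710 CPM. The 10-week replicate 3 had 558 CPM of Acat1, below the 620 to 625 CPM of the rest of its group. Scp2 in the 8-week replicate 1 was below the others, at 257 CPM against 312 to 320 CPM. The 12-week replicate 4 had 138 CPM of Abcd3, below the 155 to 157 CPM of the rest of its group. The 10-week replicate 2 had 17.2 CPM of Ehhadh, above the 11.4 to 12.1 CPM of the rest of its group.

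In kidney 7 libraries or genes were set apart. Eci1 in the 10-week replicate 1 was above the others, at 91.6 CPM against 59.7 to 64.5 CPM. The 8-week replicate 1 had 207 CPM of Echs1, below the 246 to 249 CPM of the rest of its group. Acox3 in the 8-week replicate 3 was above the others, at 379 CPM against 310 to 313 CPM. The 10-week replicate 4 had 978 CPM of Scp2, above the 895 to 909 CPM of the rest of its group. Acot2 in the 12-week replicate 4 was above the others, at 30.4 CPM against 26.2 to 26.9 CPM. The 10-week replicate 2 had 386 CPM of Crot, below the 616 to 627 CPM of the rest of its group. Abcd2 in the 8-week replicate 2 was above the others, at 1.37 CPM against 0.222 to 0.356 CPM.

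In liver 9 libraries or genes were set apart. Cpt1a in the 10-week replicate 2 was above the others, at 455 CPM against 368 to 382 CPM. The 8-week replicate 4 had 161 CPM of Acadvl, below the 162 to 163 CPM of the rest of its group. Acaa2 in the 8-week replicate 3 was above the others, at 774 CPM against 702 to 709 CPM. The 12-week replicate 1 had 29.6 CPM of Acsl3, above the 22.0 to 23.2 CPM of the rest of its group. Acsl4 in the 10-week replicate 2 was above the others, at 189 CPM against 86.1 to 103 CPM. The 8-week replicate 1 had 2.36 CPM of Etfb, above the 2.01 to 2.06 CPM of the rest of its group. Acot2 in the 12-week replicate 1 was above the others, at 7.92 CPM against 3.81 to 4.02 CPM. The 8-week replicate 4 had 25.1 CPM of Crat, above the 19.0 to 19.98 CPM of the rest of its group. Amacr in the 10-week replicate 2 was below the others, at 75.0 CPM against 104 to 109 CPM.

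The change from 8 to 12 weeks differed between organs for 8 members by edgeR's interaction test. Heart minus liver, the log2 difference was -0.55 for Acads, -0.67 for Acaa1a, 0.56 for Oxct1 and -0.72 for Eci1. Kidney minus liver, it was -0.72 for Abcd3, -1.12 for Acsl1, -0.91 for Slc25a20 and -0.84 for Decr2. The adjusted p-values are given with the comparison, and the causes were not tested.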

How the results depend on the processing

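The 6 genes called between ages kept their direction under every alternative run on them. Between organs, scaling by library totals turned the sign of 12 members for kidney against liver, 2 for heart against kidney and 1 for heart against liver, none of them called, and split the called members into 9 higher and 8 lower, 15 and 18, and 16 and 17. Leaving out 1 library gave 0 to 8 members called in heart at 12 against 8 weeks, 0 to 1 at 10 against 8 weeks and 0 to 0 at 12 against 10 weeks. In kidney the ranges were 0 to 0, 0 to 3 and 0 to 4, and in liver 0 to 0 in each comparison. Between organs 31 to 31 were called for heart against liver, 24 to 25 for kidney against liver and 34 to 36 for heart against kidney.

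No share of all genes called is given beside the counts with a library left out or the counts that follow. DESeq2 called 2 members in heart at 10 against 8 weeks. In kidney it called 1, 5 and 3 at 12 against 8, 10 against 8 and 12 against 10 weeks, and in liver 11, 3 and 8. Without the filter on low counts, heart gave 1 at 10 against 8 and 2 at 12 against 10 weeks, kidney 6, 10 and 6, and liver 10, 2 and 1 in the order used for DESeq2. The first stranded column gave 2 in heart and 0 in liver at 12 against 8 weeks and 1 in liver at 12 against 10 weeks. With the replicate number as a block within an organ, kidney gave 2 at 10 against 8 and 1 at 12 against 10 weeks. Liver gave 0 at 12 against 8 weeks. Abcd3 in heart (adjusted p = 0.0554, edgeR) and Decr2 in liver (0.0819) were not called with that block. The fit of all libraries instead used a block for each age and number, which joins organs of the same age and number. There the differences in change gave 7 for kidney against liver and 3 for heart against liver. Each mouse was killed at 1 age, so within an organ the block joins different animals and stands for no stated unit. The cause of the lost calls was not tested. The numbers share no stated animal: 13 of 36 pairs of the same age and number in 2 organs, and 9 of 36 pairs of the same number at 2 ages, had a correlation of deviations over 0.1 (ranges -0.03 to 0.24 and -0.30 to 0.23), and 27 and 9 were best with their own number, where 1 in 4 gives 9. This is a hint from the data and not from the design. For the 6 called genes, the call was lost in 34 settings with a library left out and kept in 14, and lost in 6 and kept in 30 under other settings.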
